A study of Mus musculus with 11 samples.

Results

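Motile cilium genes and intraflagellar transport (Ift) genes were followed in the lungs of wild-type mice and of mice lacking both Eif4ebp1 and Eif4ebp2. The list held 49 genes, chosen by gene name and known function: 37 genes of the motile cilium and 12 Ift genes, against 14351 named genes in the whole table. A named probe set was found for 36 of them, 24 motile cilium genes and all 12 Ift genes. Genes were tested where 2 or more of the 11 arrays read 5 or higher on the log2 scale, which left 16 motile cilium genes and 12 Ift genes among the 8085 genes tested. Where a gene had several probe sets, the one of highest mean stood for it.

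All mice were Balb/c. The wild-type mice were bought from a breeder, while the mice of genotype 4ebp1-/-/4ebp2-/- came from another laboratory, and the labels do not call them littermates. Both genotypes ate the AIN-93M purified diet from 5 weeks of age, and their age at the end is not given. The knockout is labelled for the mouse as a whole, not for a cell type. Total RNA of whole lung was read on 3 wild-type and 3 knockout arrays. Polysomal RNA was read on 2 wild-type and 3 knockout arrays, and was the pool of gradient fractions 7 to 10, in which a transcript carries 3 or more ribosomes. The labels do not tie arrays to separate mice. The p-values therefore measure only how far these arrays spread, and part of that spread may be technical. Whole lung holds many cell types, so fewer ciliated cells and less RNA in each ciliated cell cannot be told apart.

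Motile cilia are the beating hairs of the multiciliated cells that line the airways and clear mucus from the lung. Their core, the axoneme, carries dynein arms that drive the beat, radial spokes and a central pair that regulate it, and rulers and tektins that fix its spacing and strength. The transcription factor Foxj1 switches on this gene programme, together with RFX factors that bind a motif called the X-box in the promoters of cilium genes. Intraflagellar transport is the shuttle that builds every cilium: the IFT-B complex carries cargo to the tip and the IFT-A complex returns it. The shuttle also builds the single, non-beating primary cilium of other cells, so Ift genes are used far more widely than motile cilium genes. The 4E-BP proteins restrain translation by occupying eIF4E, the factor that recognises the cap of a message.

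Motile cilium genes were lower in the knockout, most plainly on polysomes. On polysomal RNA 7 of the 16 tested motile cilium genes fell and none rose (limma, Benjamini-Hochberg adjusted p below 0.05), where 6.77% of all genes tested fell and 8.36% rose. The falls ran from 1.98-fold for Dnah11 to 4.22-fold for Ak8, and 15 of the 16 differences were below 0, with a median of -0.88 on the log2 scale against -0.01 over all genes tested. In total RNA 5 of the 16 fell and none rose, where 5.97% of all genes fell and 17.2% rose, and the median difference was -0.45 against 0.09 over all genes. The total RNA count of 5 ran from 1 to 11 when each array was left out in turn (1 without the first and 11 without the third wild-type array), and was 1 in a fit of the total RNA arrays alone and 2 with the replicate set as a block within RNA kind. The Ift genes did not move together: in total RNA 2 of 12 fell and 1 rose, on polysomes 4 fell and none rose, and their median differences were 0.00 and -0.09. Under quantile normalization 4 fell and 0 rose in total RNA, with a median of -0.09, and with arrays set to 1 common median the counts were the same and the median was -0.10.

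Not every listed gene could be read. The motile cilium genes Dnah9, Rsph4a, Lrrc23, Spag6, Spef2, Ak7, Ccdc40, Tekt4, Cfap44, Cfap45, Cfap53, Cfap126 and Sntn, 13 in all, had no probe set matched by name and were not analysed here. Another 8 stayed under the minimum: Rfx2, Rfx3, Dnaic2, Dnah5, Dnal1, Spag16, Spag17 and Cfap52. The median of the 12378 probe sets that never reached the minimum marks the dim end of the scale, at 2.30 to 2.49 on the log2 scale depending on the array. Rfx3, a partner of Foxj1, read 1.68 to 1.83 on the 11 arrays, and Rfx2, another RFX factor, 3.07 to 4.54. Cfap52 read 3.58 to 4.55, with its highest values, 4.08 and 4.55, on the wild-type polysomal arrays. Of the 16 tested, 11 were at or above 5 on all 11 arrays. Dnaic1 passed the minimum only through the 2 wild-type polysomal arrays and Iqub only through 2 wild-type total arrays, so each had to differ. Without this pair, 4 of 14 motile cilium genes fell in total RNA and 6 of 14 on polysomes.

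Over the whole table, Eif4ebp2 read 4.50 to 5.49 in wild-type and 2.61 to 3.26 in knockout total RNA, and 5.76 to 6.09 against 3.75 to 3.92 on polysomes, so this targeted gene was lower under its label. Eif4ebp1 read 8.20 to 8.54 against 7.92 to 7.94 in total RNA and 7.78 to 7.93 against 7.05 to 7.36 on polysomes. It was lower in knockout without overlap in both RNA kinds, but its signal stayed well above the dim end of the scale. Where its probes lie against the deleted part is not stated, so these values do not settle whether its message was lost. The third wild-type total array stood apart from the other 2, and not for cilium genes only. Over all probe sets tested, its mean correlation with the other wild-type total arrays was 0.980, against 0.988 for the first and 0.985 for the second. Of the 16 tested motile cilium genes, 14 were lower on the third array than on both others, with a median of -0.66 on the log2 scale against the mean of those 2. Of 12 Ift genes 9 were lower too, with a median of -0.24. The share of all genes lower there was not counted. The club cell and alveolar type 2 marker lists also had their lowest mean level of any array there, 12.78 and 12.70. So did the mucous cell and alveolar type 1 lists, at 7.31 and 13.08. Where a member's call in total RNA changed without this array, the value without it is given beside the gene.

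Foxj1, the regulator of the multiciliated programme, differed between genotypes on polysomes and not in total RNA. On the wild-type polysomal arrays it read 9.30 and 9.75, and on the knockout polysomal arrays 8.39, 8.11 and 8.27. The groups did not overlap, with a fall of 1.27 on the log2 scale, or 2.41-fold (SE 0.17, adjusted p = 0.00256). In total RNA it read 6.62, 6.56 and 6.47 in wild type and 7.05, 7.01 and 6.57 in knockout. Those groups overlapped and the difference of 0.33 (SE 0.16) did not pass (adjusted p = 0.160). The difference between the polysomal and the total effect, the interaction, was -1.60 (SE 0.23, adjusted p = 0.00434), and no single array left out ended that call. In wild type Foxj1 was 7.88-fold higher in polysomal than in total RNA, and in knockout 2.60-fold.

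Dynein arm genes followed. Dnaic1, an intermediate chain of the outer dynein arm, read 2.48, 3.15 and 2.14 on the wild-type and 2.51, 2.52 and 2.53 on the knockout total arrays, near the dim end of the scale in both. On polysomes it read 5.84 and 5.50 in wild type and 3.66, 3.92 and 3.57 in knockout. The polysomal difference was -1.96 (SE 0.25, adjusted p = 0.00189), and since its total level could hardly go lower, the absence of a call in total RNA (-0.07, adjusted p = 0.863) has little range behind it.

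Dnali1, a light intermediate chain of the inner dynein arms, read 8.88 and 8.99 on the wild-type and 7.69, 7.77 and 7.89 on the knockout polysomal arrays. It fell 2.22-fold there (log2 -1.15, SE 0.18, adjusted p = 0.00377). In total RNA the values were 8.31, 8.35 and 7.68 against 7.89, 7.77 and 7.86, with an overlap made by the third wild-type array. Without that array the total difference was -0.49 and passed (adjusted p = 0.00625).

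Dnah11, a heavy chain of the outer arm, was the one motile cilium gene that fell in both RNA kinds with all arrays in the fit. It read 7.22, 6.66 and 7.19 in wild type and 6.24, 6.22 and 6.65 in knockout total RNA. Its polysomal values were 7.24 and 6.67 against 5.91, 5.97 and 6.03. The groups did not overlap in either RNA kind, with differences of -0.65 (SE 0.20, adjusted p = 0.0388) and -0.99 (SE 0.22, adjusted p = 0.0169). The total call was lost without any 1 of 7 arrays, the third wild-type total array among them (adjusted p = 0.0882), and the polysomal call without the first wild-type polysomal array. Lrrc6, a factor that preassembles dynein arms in the cytoplasm, read 7.15, 7.12 and 6.33 in wild-type and 5.999, 6.047 and 6.105 in knockout total RNA. It fell by 0.82 (SE 0.20, adjusted p = 0.0175), and on polysomes it read 6.004 and 6.105 against 5.84, 5.86 and 5.51, with no call (adjusted p = 0.389). The total call was lost without the first or second array of either genotype.

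The 2 dynein light chains tested were not called in either RNA kind with all arrays in the fit. Dynlrb2, a roadblock-type light chain, was among the brightest members at 12.12 to 12.77 in wild-type total RNA, and its differences of -0.24 and -0.26 did not pass. Tctex1d2, a light chain of the dynein-2 motor that powers return transport, read 9.04, 9.04 and 8.80 in wild-type and 8.50, 8.72 and 8.84 in knockout total RNA. On polysomes it read 9.04 and 9.04 against 9.53, 9.44 and 9.30, where all knockout arrays were the higher ones. Neither difference passed (-0.28, adjusted p = 0.106, and 0.39, adjusted p = 0.0689), though the total difference did without the third wild-type total array (-0.36, adjusted p = 0.0465), and the interaction passed, at 0.67 (SE 0.17, adjusted p = 0.0240), against the direction of the other motile cilium genes called.

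**Figure D1:**
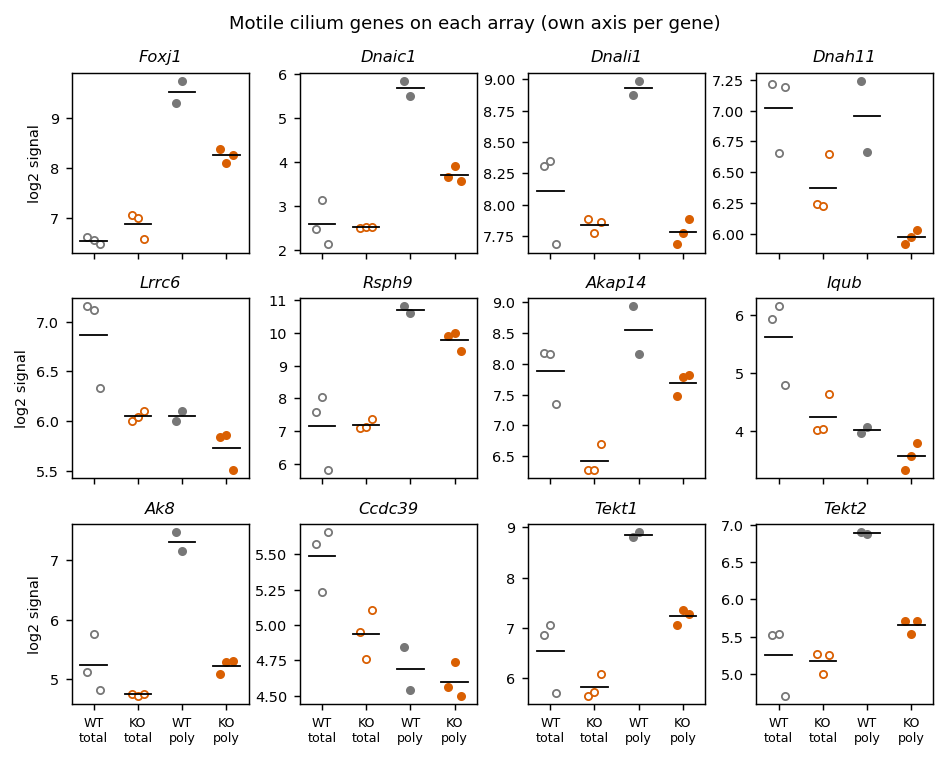
Log2 signal of 12 motile cilium genes on each of the 11 arrays, in wild type (WT, grey) and knockout (KO, orange), with open points for total RNA, filled points for polysomal RNA and a line at each group's mean; the log2 axis differs between genes and does not start at 0. All genes shown but Ccdc39 stood higher on both wild-type polysomal arrays than on any knockout polysomal array, though not every such difference passed. The third wild-type total point lay low for most genes.

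Among the radial spoke and spoke-associated genes, Akap14, an anchor for protein kinase A in the axoneme, had the largest total RNA fall of the members with all arrays in the fit, though not without the third wild-type total array, where Iqub fell by 1.82 and Akap14 by 1.74. It read 8.17, 8.16 and 7.34 in wild type and 6.29, 6.28 and 6.70 in knockout, a fall of 1.47 or 2.77-fold (SE 0.26, adjusted p = 0.00486) that held without each array in turn. Its polysomal values were 8.93 and 8.16 against 7.48, 7.79 and 7.81, without overlap, and the difference of -0.85 did not pass (adjusted p = 0.0786).

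Iqub, a radial spoke protein, read 5.94, 6.15 and 4.80 in wild-type and 4.02, 4.03 and 4.63 in knockout total RNA. It fell by 1.40 (SE 0.32, adjusted p = 0.0132), and the call was lost without the first wild-type or the second knockout total array. Its polysomal values were low in both genotypes, 3.96 and 4.07 against 3.32, 3.56 and 3.78.

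Ak8, an adenylate kinase of the axoneme, was called on polysomes. In total RNA it read 5.12, 5.76 and 4.82 against 4.76, 4.73 and 4.76, a difference of -0.48 that did not pass (adjusted p = 0.114), and that was -0.69 and passed without the third wild-type array (adjusted p = 0.0227). On polysomes it read 7.46 and 7.15 in wild type and 5.09, 5.30 and 5.30 in knockout. That difference of -2.08, a 4.22-fold fall (SE 0.23, adjusted p = 0.00103), was the largest of all members, and the interaction passed at -1.59 (SE 0.31, adjusted p = 0.00899).

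The spoke head genes did not pass with all arrays in the fit. Rsph1 read 9.94 to 10.41 in wild-type and 9.69 to 9.75 in knockout total RNA, without overlap (-0.43, SE 0.14, adjusted p = 0.0526), and passed without the third wild-type array (-0.53, adjusted p = 0.0207). Rsph9 spread widely over the wild-type total arrays, at 7.59, 8.05 and 5.82, against 7.10, 7.13 and 7.36 in knockout. Its total difference was 0.04 with the third wild-type array and -0.63 without it (adjusted p = 0.0439). On polysomes Rsph9 read 10.80 and 10.60 against 9.91, 10.00 and 9.46, a difference of -0.91 (SE 0.51, adjusted p = 0.273). Hydin, of the central pair, was the only member of that apparatus tested, and its differences of -0.54 and -0.60 did not pass (adjusted p = 0.114 and 0.139). Without the third wild-type array its total difference was -0.84 and passed (adjusted p = 0.0032).

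Rulers and tektins completed the motile set. Ccdc39, part of the ruler that spaces dynein arms and spokes, read 5.57, 5.23 and 5.66 in wild-type and 4.95, 4.76 and 5.11 in knockout total RNA. It fell by 0.55 (SE 0.14, adjusted p = 0.0233), and the call was lost without the first array of either genotype, the second knockout or the third wild-type array (adjusted p = 0.0533 without the last). On polysomes its values overlapped, at 4.84 and 4.54 against 4.56, 4.74 and 4.50.

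The tektins, filaments of the doublet microtubules, fell on polysomes. Tekt1 read 8.80 and 8.91 in wild type and 7.07, 7.35 and 7.28 in knockout, a 3.08-fold fall (log2 -1.62, SE 0.33, adjusted p = 0.0125) that was lost without either wild-type polysomal array. In total RNA it read 6.87, 7.07 and 5.71 against 5.66, 5.73 and 6.08. The total difference of -0.73 did not pass with the third wild-type array (adjusted p = 0.109), and was -1.15 without it (adjusted p = 0.0016). Tekt2 read 6.90 and 6.88 on the wild-type and 5.71, 5.53 and 5.71 on the knockout polysomal arrays, a fall of 1.24 (SE 0.22, adjusted p = 0.00679). In total RNA its values overlapped, at 5.52, 5.53 and 4.71 against 5.26, 5.01 and 5.26, with a difference of -0.08. Without the third wild-type array it was -0.35 and passed (adjusted p = 0.0393).

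Directions and calls were then set side by side in both RNA kinds. Below 0 in both RNA kinds lay 13 of the 16 motile cilium genes and 2 of the 12 Ift genes, against 19.5% of all genes tested. Called lower in at least 1 RNA kind were 11 of 16 motile cilium genes and 6 of 12 Ift genes, against 11.9% of all genes tested, and of the members Dnah11 alone was called in both with all arrays in the fit. Averaging the genotype difference over both RNA kinds, a contrast added after the data were seen, 12 of 16 motile cilium genes and 2 of 12 Ift genes were lower and none of either higher, where 6.42% of all genes tested were lower and 13.5% higher. Dnaic1 and Iqub, which had to differ, are among these 12 and among the 11 above. With that pair set aside, 10 of 14 motile cilium genes were lower in the average. In that average Ak8 (-1.28), Tekt1 (-1.17) and Akap14 (-1.16) fell most, and Hydin (-0.57) and Rsph1 (-0.41) passed as well. These calls were not all firm: that of Hydin was lost without any 1 of 9 arrays, Lrrc6 without any 1 of 8, Iqub without any 1 of 6, Foxj1 without either of 2 and Rsph1 without 1. The Ift genes that passed it were Ift88 (-0.56) and Ift122 (-0.42).

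**Figure D2:**
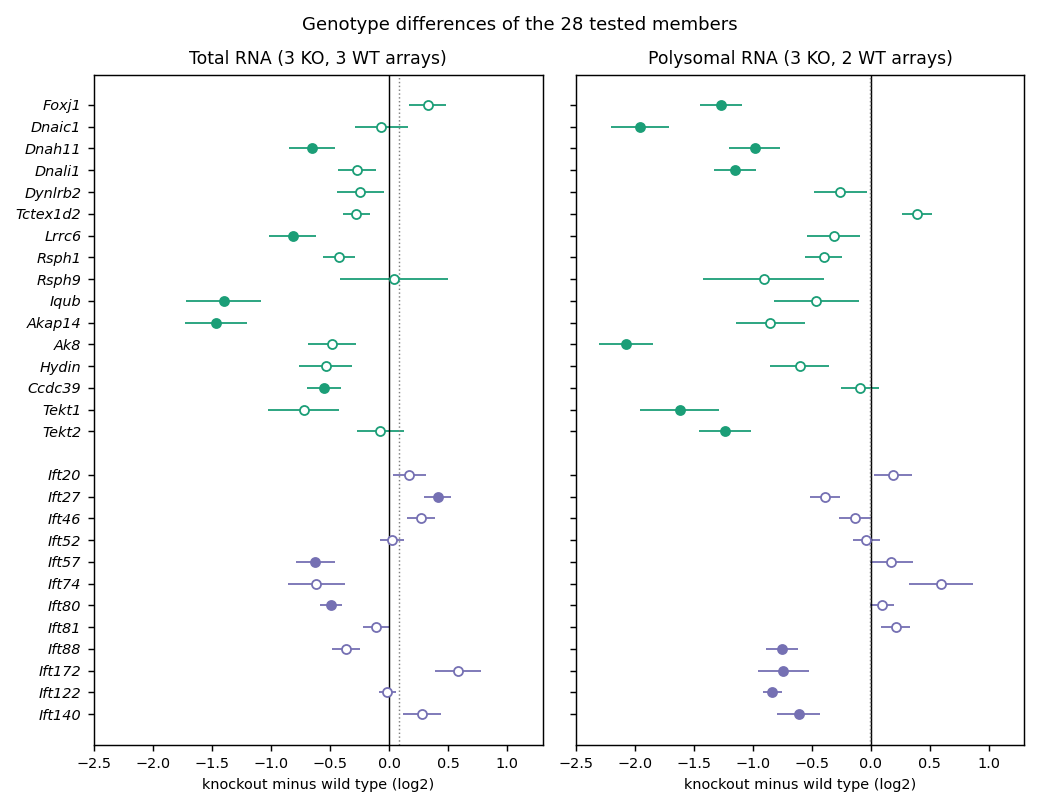
Knockout minus wild type on the log2 scale for the 16 motile cilium genes (green) and 12 Ift genes (purple) tested, in total RNA (left) and polysomal RNA (right), with bars of 1 SE from the limma fit, filled points where the adjusted p was below 0.05, and a dotted line at the median of all genes tested. Green points lay mostly left of 0 in both panels, while purple points lay on both sides.

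The labels put the arrays in replicate sets named by letter, without explaining them. The total RNA differences were not alike in the sets, while on polysomes both sets gave medians below 0. Within set A, with 1 knockout and 2 wild-type total arrays, 15 of 16 motile cilium genes were below 0, with a median of -0.65. Within set B, with 2 knockout arrays and the third wild-type array, 8 of 16 were below 0 and the median was 0.02. Iqub, which had to differ in total RNA, was below 0 in both sets. Without the third wild-type total array, 11 of 16 motile cilium genes, Iqub among them, and 4 of 12 Ift genes were called lower in total RNA. Over all 8085 genes tested 702 were called lower in that fit, against 483 with all arrays. On polysomes, with 1 array of each genotype in a set, the medians were -0.95 in set B and -0.76 in set C, and 15 of 16 were below 0 in both. Dnaic1, which had to differ on polysomes, was among those 15 in both sets.

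Other motile cilium genes, from a separate list of 104 names with 31 tested, were lower in the knockout too. In total RNA 5 fell and 1 rose, and 25 were below 0, where 5.97% of all genes tested fell, 17.2% rose and 39.1% were below 0. On polysomes 13 of 31 fell, none rose, and all 31 were below 0, with a median of -0.65. Of all genes tested 6.77% fell there, 8.36% rose and 51.0% were below 0. The largest polysomal falls among those named were in Dnajb13, a radial spoke chaperone (-1.68, SE 0.18, adjusted p = 8.69e-04), and Zmynd10, a dynein arm preassembly factor (-1.53, SE 0.18, adjusted p = 0.00153). Morn5 (-1.10) and the ciliated-cell cadherin Cdhr3 (-0.93) fell there too. The exception in total RNA was Tppp3, a tubulin-binding protein found in ciliated cells and elsewhere, which rose by 1.39 (SE 0.23, adjusted p = 0.00374). Within set B the median of the 31 in total RNA was 0.13, against -0.62 in set A.

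Markers of the other cells of the airway and alveolus were read on the same arrays. For comparison, 17.2% of all genes tested rose and 5.97% fell in total RNA, and 8.36% rose and 6.77% fell on polysomes. Of 10 club cell markers tested, 3 rose in total RNA (Cbr2, Scgb3a1 and Hp) and none fell, while on polysomes Fmo2 and Aldh1a7 fell by 0.86 and 0.46, none rose, and 7 of 10 were below 0. In the average over both RNA kinds 2 club cell markers were lower and 3 higher, where 6.42% of all genes tested were lower and 13.5% higher. Their mean level on polysomes was 14.36 to 14.38 in wild type and 14.08 to 14.22 in knockout, a lower range. Of 8 alveolar type 2 markers, 3 rose in total RNA and none was called on polysomes, at 14.21 to 14.23 against 14.17 to 14.20. Alveolar type 1 markers gave 2 of 6 higher in total RNA and none called on polysomes, at 13.30 to 13.33 against 13.40 to 13.43. Of 5 mucous cell markers 3 rose in total RNA and Tff2 rose on polysomes, at 8.67 on both wild-type arrays against 8.48 to 9.13. None of the 6 basal cell markers reached the minimum. Of 6 neuroendocrine markers only Calca did, and it was not called in either RNA kind, with -0.58 in total and -1.02 in polysomal RNA, but was lower in the average over both (-0.80). The part of these cell types in the motile cilium result was not tested.

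**Figure D3:**
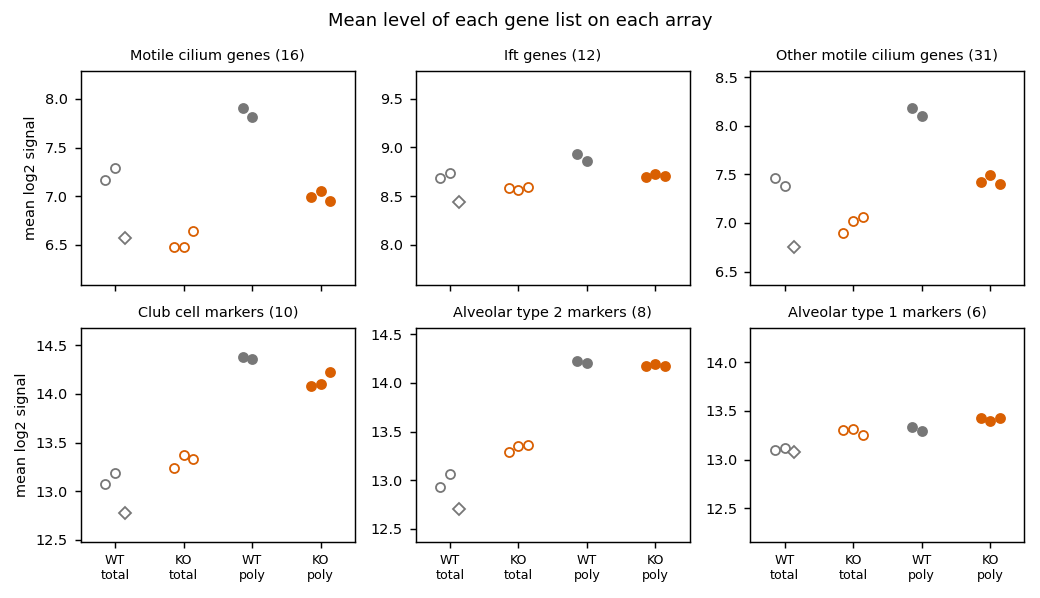
Mean log2 signal of the tested members of 6 gene lists on each of the 11 arrays (number of genes in brackets), in wild type (grey) and knockout (orange), with open points for total and filled points for polysomal RNA and a diamond for the third wild-type total array; every panel spans the same height on the log2 scale and does not start at 0. On polysomes the motile cilium genes and the other motile cilium genes stood lower in knockout, the alveolar type 2 levels ran from 14.17 to 14.23 over both genotypes, and the diamond was the lowest wild-type total point in each panel.

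Ift genes were next examined by complex. Of the 10 IFT-B genes, Ift57 and Ift80 fell and Ift27 rose in total RNA, while Ift88 and Ift172 fell on polysomes. Ift80 read 7.94, 8.02 and 7.86 in wild-type and 7.47, 7.42 and 7.45 in knockout total RNA. It fell by 0.49, or 1.41-fold (SE 0.09, adjusted p = 0.00544), a call that held without each array in turn, and on polysomes it read 7.11 and 6.86 against 7.07, 7.16 and 7.01, which overlapped.

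Ift57 read 10.73, 10.60 and 10.02 in wild-type and 9.70, 9.87 and 9.90 in knockout total RNA. It fell by 0.63 (SE 0.16, adjusted p = 0.0230), lost without the first or second array of either genotype. Its polysomal values were 10.01 and 9.96 against 10.05, 10.20 and 10.23, slightly higher in knockout and not called. Ift74, a core IFT-B protein that binds tubulin cargo, read 8.99, 9.19 and 8.23 against 8.01, 8.01 and 8.55 in total RNA, a difference that passed without the third wild-type array (-0.90, adjusted p = 0.0093). On polysomes the knockout arrays were the higher ones, at 7.27 and 7.00 in wild type against 7.54, 7.79 and 7.87 in knockout, and the interaction of 1.21 passed (SE 0.37, adjusted p = 0.0415), though it was lost without any 1 of 9 arrays.

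Ift27, a small GTPase of the complex, went the other way. It read 8.49, 8.66 and 8.52 in wild type and 8.97 on all 3 knockout arrays in total RNA, a rise of 0.41 (SE 0.12, adjusted p = 0.0303) that was lost without any 1 of 5 total arrays (adjusted p = 0.0535 without the third wild-type array). On polysomes it read 9.69 and 9.28 against 9.23, 9.02 and 9.04, lower in knockout and not called (-0.39, adjusted p = 0.0706). The interaction of -0.80 (SE 0.17, adjusted p = 0.0133) held without each array in turn.

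Ift88, a core IFT-B protein whose loss prevents cilium assembly, read 8.49 and 8.67 on the wild-type and 7.61, 7.95 and 7.93 on the knockout polysomal arrays. It fell by 0.75 (SE 0.14, adjusted p = 0.00723), lost without the second wild-type polysomal array. In total RNA its values were 7.53, 7.70 and 7.36 against 7.17, 7.11 and 7.22, without overlap and short of the threshold (-0.36, adjusted p = 0.0568), and it passed without the third wild-type array (-0.45, adjusted p = 0.0285). Ift172, a peripheral IFT-B protein, read 7.89, 7.56 and 6.99 in wild-type and 8.22, 8.05 and 7.93 in knockout total RNA, higher in knockout without overlap (0.59, adjusted p = 0.0564). Its polysomal values were 9.03 and 9.07 against 8.40, 8.34 and 8.17, a fall of 0.74 (SE 0.22, adjusted p = 0.0471) that was lost without any 1 of 9 arrays. Its interaction, -1.33 (SE 0.29, adjusted p = 0.0140), held without each array in turn.

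Both IFT-A genes fell on polysomes and both passed the interaction. Ift122 read 6.57, 6.51 and 6.56 in wild-type and 6.50, 6.53 and 6.56 in knockout total RNA, which overlapped. On polysomes it read 7.51 and 7.50 against 6.72, 6.71 and 6.57, a fall of 0.83 or 1.78-fold (SE 0.08, adjusted p = 7.65e-04). This was the smallest adjusted p of any member in the genotype comparisons of either RNA kind, and the interaction passed as well (-0.82, SE 0.11, adjusted p = 0.00336). Ift140 read 9.73, 9.85 and 10.33 against 10.28, 10.33 and 10.13 in total RNA and 11.63 and 11.25 against 10.92, 10.83 and 10.72 on polysomes. In total RNA it was not called with all arrays in the fit (0.28), and was higher in knockout without the third wild-type array (0.46, adjusted p = 0.0293). Its polysomal fall of 0.61 (SE 0.18, adjusted p = 0.0482) was lost without any 1 of 9 arrays, and the interaction was -0.89 (adjusted p = 0.0289). The remaining Ift genes showed no genotype call. Ift20, which links the Golgi apparatus to the cilium, read 8.79 to 9.25 in wild-type and 9.08 to 9.22 in knockout total RNA, with differences of 0.17 and 0.19 in total and polysomal RNA. Ift46, Ift52 and Ift81 had differences between -0.14 and 0.27.

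**Figure D4:**
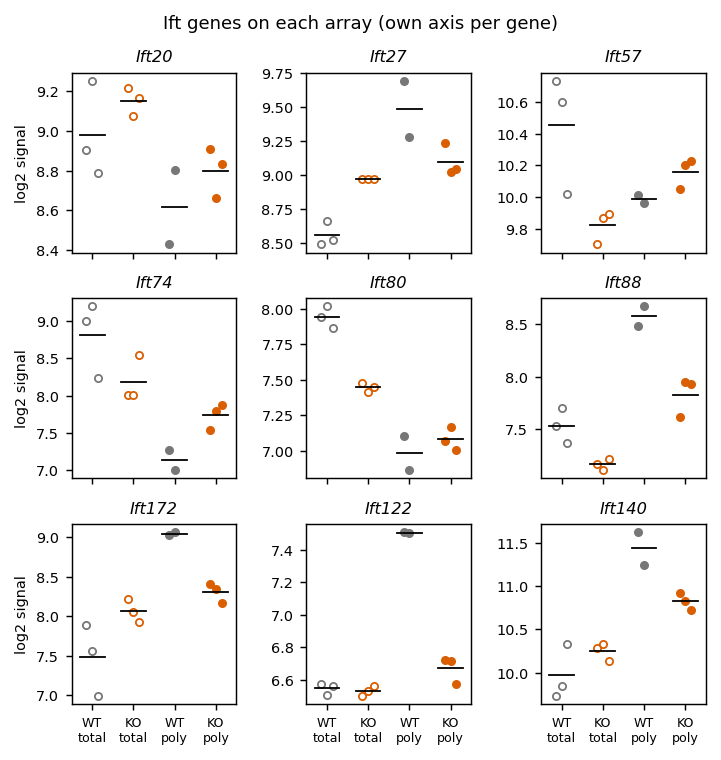
Log2 signal of 9 Ift genes on each of the 11 arrays, with colours, symbols and mean lines as for the motile cilium genes; the log2 axis differs between genes and does not start at 0. Ift57 and Ift80 were lower in knockout in total RNA, while Ift88, Ift172, Ift122 and Ift140 were lower in knockout on polysomes.

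Other genes of the transport machinery, from a list of 23 with 14 tested, included 3 that fell on polysomes, where 6.77% of all genes tested fell and 8.36% rose. Wdr35, a further IFT-A subunit (-0.93, adjusted p = 0.00550), and the dynein-2 genes Dync2h1 (-1.15, adjusted p = 0.00575) and Wdr34 (-0.52, adjusted p = 0.0209) fell there, and none of the 14 rose. In total RNA Cluap1 fell (-0.58) and Dynlrb1 rose (0.60). Of 18 tested genes of the BBSome and the primary cilium, 4 fell in total RNA (Lztfl1, Arl13b, Ofd1 and Ttc8) and none rose, where 5.97% of all genes tested fell and 17.2% rose. On polysomes Bbs2 fell (-1.23) and Lztfl1, a regulator of BBSome traffic, rose (0.70, adjusted p = 0.00518).

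The genotype effect differed between the RNA kinds for 13 of the 28 members. Among motile cilium genes the interaction was below 0 for 5 (Foxj1, Dnaic1, Dnali1, Ak8 and Tekt2) and above 0 for Tctex1d2. With Dnaic1 and Iqub set aside, since they had to differ, 4 of 14 were called below 0 and 1 above 0. Over all genes tested, 14.2% were called below 0 and 8.06% above 0. Among Ift genes 4 were below 0 (Ift27, Ift172, Ift122 and Ift140) and 3 above 0 (Ift57, Ift74 and Ift80). Not all of these calls were firm: those of Dnali1, Tctex1d2, Tekt2, Ift57, Ift74, Ift80 and Ift140 were lost without 1 or more arrays. The call of Ift57 was lost without any 1 of 10 arrays, and that of Ift80 without 1.

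Polysomal against total RNA within each genotype showed where these genes started. In wild type 7 of 16 motile cilium genes were higher on polysomes and 3 lower, where 44.5% of all genes tested were higher and 27.9% lower. The higher ones were Rsph9 (log2 3.54), Dnaic1 (3.08), Foxj1 (2.98), Tekt1 (2.31), Ak8 (2.07), Tekt2 (1.64) and Dnali1 (0.82), where the total level of Dnaic1 lay at the dim end of the scale, so that its difference has no well-measured size. The lower ones were Iqub (-1.61), Lrrc6 (-0.81) and Ccdc39 (-0.80). With Dnaic1 and Iqub set aside, since they had to differ, 6 of 14 were higher and 2 lower. On polysomes the knockout differences of the 7 higher ones were -0.91, -1.96, -1.27, -1.62, -2.08, -1.24 and -1.15 in the same order. In total RNA the knockout differences of Iqub, Lrrc6 and Ccdc39 were -1.40, -0.82 and -0.55. These comparisons share the wild-type arrays with the polysomal against total comparison, so the values are set side by side and no relation is drawn. The median of all genes in wild type was 0.22, and 0.06 after quantile normalization. In knockout 6 of 16 were higher on polysomes and none lower, where 39.5% of all genes were higher and 25.7% lower. They were Rsph9 (2.59), Tekt1 (1.41), Foxj1 (1.38), Akap14 (1.27), Dnaic1 (1.19) and Tctex1d2 (0.74).

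Of the Ift genes, 6 of 12 were higher on polysomes and 4 lower in wild type, where 44.5% and 27.9% of all genes were. Ift172 (1.57), Ift140 (1.47), Ift88 (1.05), Ift122 (0.96), Ift27 (0.93) and Ift81 (0.89) were higher on polysomes, and Ift74 (-1.67), Ift80 (-0.95), Ift57 (-0.46) and Ift52 (-0.39) lower. In knockout 3 were higher, Ift81 (1.21), Ift88 (0.66) and Ift140 (0.58), and 2 lower, Ift52 (-0.45) and Ift80 (-0.37). Differences between polysomal and total RNA were smaller in knockout for 12 of 16 motile cilium and 10 of 12 Ift genes, as they were for 72.2% of all genes tested. A smaller spread in knockout was common to the table: a line of knockout on wild-type differences had a slope of 0.68 over all 8085 genes (Pearson's r = 0.93 across genes, which are not independent replicates), 0.50 over the motile cilium genes and 0.35 over the Ift genes. The points share 5 wild-type and 6 knockout arrays, and the difference between the slopes was not tested. Below the line of all genes lay 9 of 16 motile cilium genes and 8 of 12 Ift genes, against 51.6% of all genes.

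**Figure D5:**
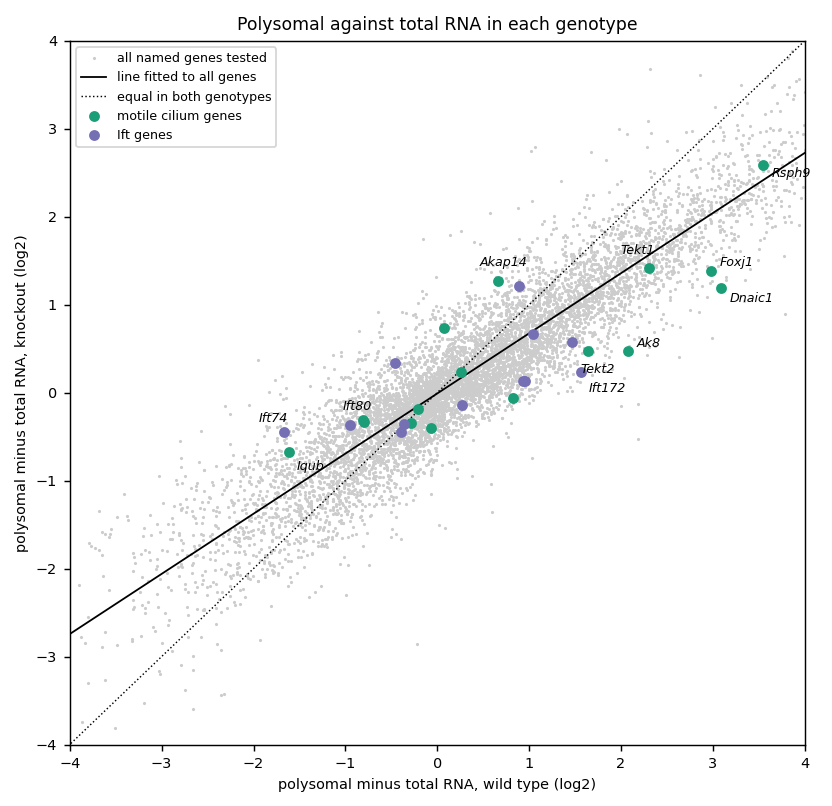
Polysomal minus total RNA on the log2 scale in knockout against wild type for the motile cilium genes (green), the Ift genes (purple) and all 8085 genes tested (grey; 145 genes lie outside the axes, which run from -4 to 4), with the line fitted to all genes and a dotted line where both genotypes are equal. Most members with large values in wild type lay between 0 and the dotted line, as did most grey points, and Foxj1, Dnaic1, Ak8, Tekt2 and Ift172 lay under the fitted line.

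The promoters of the members were searched for the motifs of the factors named above. The RefSeq table for GRCm38.p6 gives 250 bases before to 50 bases after a transcript start for 41 of the 49 members, 32 motile cilium and 9 Ift genes. Foxj1 is not among them. An X-box was taken as GTNNCC followed after 0 to 3 bases by NGNAAC, on either strand. It was present in 15 of 32 motile cilium genes (46.9%) and 2 of 9 Ift genes (22.2%), against 5.94% of all 27025 genes in the table and 6.79% of the 6478 tested genes with a window. On the separate list of other motile cilium genes it was present in 27 of 83 (32.5%), among BBSome and primary cilium genes in 9 of 33 (27.3%), among other transport genes in 3 of 20, and in none of the windows of the club, mucous, basal, neuroendocrine and alveolar markers. The sites of the tested members are shown because they put closely alike boxes next to the start of genes with different genotype calls. Capitals mark the X-box and 15 flanking bases on each side are in lower case.
Dnaic1: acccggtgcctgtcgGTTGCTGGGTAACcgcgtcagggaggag
Tekt2: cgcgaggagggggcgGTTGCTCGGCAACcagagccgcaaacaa
Iqub: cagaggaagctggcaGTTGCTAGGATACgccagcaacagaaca
Hydin: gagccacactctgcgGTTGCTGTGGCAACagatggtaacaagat
Dynlrb2: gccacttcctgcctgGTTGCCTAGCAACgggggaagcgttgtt
Ift57: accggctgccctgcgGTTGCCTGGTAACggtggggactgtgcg
Ift74: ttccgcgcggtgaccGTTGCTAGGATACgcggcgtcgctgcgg
They lie at chr4:41569760-41569802 (Dnaic1, plus strand), chr4:126325690-126325732 (Tekt2, minus strand), chr6:24515051-24515093 (Iqub, minus strand), chr8:110266941-110266984 (Hydin, plus strand), chr8:116504949-116504991 (Dynlrb2, plus strand), chr16:49699219-49699261 (Ift57, plus strand) and chr4:94614471-94614513 (Ift74, plus strand). Counting the start base as 0 and bases before it as negative, the first base of the box stood at -19 in Dnaic1, -11 in Iqub, -21 in Hydin, -51 in Dynlrb2, -60 in Ift57 and -5 in Ift74. In Tekt2 it stood at -29 or -71, depending on which of its annotated starts is used. Iqub and Ift74 held the same box letters. Ift57 held a further X-box that overlaps the left flank shown.

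The shorter RFX motif GTTGCC, which can lie inside an X-box, was present on either strand in 15 of 32 motile cilium genes and 5 of 9 Ift genes (Ift27, Ift57, Ift88, Ift172 and Ift140), against 14.1% of all genes in the table. Tekt1, which fell on polysomes, held it in 2 places without a full X-box. The forkhead motif TGTTTAC, the class of site that Foxj1 binds, was present in 4 of 32 motile cilium genes (12.5%) and none of the 9 Ift genes, against 4.05% of all genes. It was present in 5 of 83 other motile cilium genes (6.02%), and in 2 of 6 alveolar type 2, 1 of 7 club and 1 of 7 alveolar type 1 marker windows. Among tested members it was in Iqub and in Akap14, which both fell in total RNA, though Iqub had to differ there. In the last 150 bases of the windows Akap14 alone of the 32 motile cilium genes held it (3.12%), against 1.84% of all genes. The Akap14 site is shown with the motif, read here on its other strand, in capitals.
Akap14: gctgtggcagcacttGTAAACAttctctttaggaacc
It lies at chrX:37168836-37168872 on the minus strand. Tested members with an X-box had different genotype calls: Dnaic1 and Tekt2 fell on polysomes, Iqub and Ift57 fell in total RNA, and Hydin, Dynlrb2 and Ift74 had no call in either with all arrays in the fit. A match is a run of letters and not a shown binding site. Ak8 and Dnali1, which fell on polysomes, had no X-box in the windows used.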

How the data were processed

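Lung RNA was read on 11 one-colour Affymetrix arrays, each labelled from 100 ng of RNA in a kit with 2 amplification cycles, per the labels' protocols. The authors deposited log2 values made with GCRMA, per the submitters' processing notes; the scale was read from their range of 0.733 to 16.7. The GCRMA version and probe grouping are not given in the sources used here. Array medians lay between 4.96 and 5.04, and the number of arrays limits the precision.

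Probe sets named by RefSeq accession were matched to genes in the RefSeq table of GRCm38.p6 (15228 of 26180 matched 1 gene). The fit (limma 3.58.1, R 4.3.3) gave each group its own mean over the 11 arrays (lmFit, contrasts, eBayes; 7 residual and 2.67 prior degrees of freedom). It tested 13802 probe sets, two-sided, with Benjamini-Hochberg adjustment over all of them and a threshold of 0.05. Intensity filters, moderation, normalization, set letter blocks, fits of the groups compared alone, a minimum fold and each array left out were alternatives. The script was tested on simulated data. Motifs were searched in RefSeq promoter windows.

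Members that passed in a genotype contrast, and Foxj1, Rfx2, Rfx3, Ift88, Ift172 and Ift20, were named with values. Up to 4 genes of smallest p were named from each other list. The members, lists and markers were chosen with earlier results of these data known, so none is independent support.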

Additional observations from a re-analysis of the deposited data

Results flagged for a closer look

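The genotype effect differed between polysomal and total RNA for 13 members by the interaction term of the limma fit, given here as the polysomal effect minus the total effect on the log2 scale. Over all 8085 genes tested, 14.2% were called below 0 and 8.06% above 0 by the same term. Among motile cilium genes the interaction was -1.89 for Dnaic1, -1.60 for Foxj1, -1.59 for Ak8, -1.16 for Tekt2 and -0.882 for Dnali1. Tctex1d2 was the motile cilium gene with the opposite sign, at 0.665. Among Ift genes it was -1.33 for Ift172, -0.892 for Ift140, -0.819 for Ift122 and -0.799 for Ift27. It was 1.21 for Ift74, 0.799 for Ift57 and 0.589 for Ift80. The calls of Foxj1, Ak8, Ift27, Ift172 and Ift122 held without each array in turn. So did the call of Dnaic1, which passed the minimum only through the 2 wild-type polysomal arrays and so had to differ. That of Ift57 was lost without any 1 of 10 arrays, Ift74 without any 1 of 9, and Dnali1 and Ift140 each without any 1 of 7. Tekt2 lost its call without any 1 of 5 arrays, Tctex1d2 without any 1 of 4 and Ift80 without 1. For Dnaic1 the total level lay near the dim end of the scale in both genotypes, and the part of this in its value was not tested.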

How the results depend on the processing

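Counts are of the 16 motile cilium and 12 Ift genes tested (24 and 12 with no minimum). Values of single members were compared for those called in a genotype contrast and for Ift20. In the alternatives other than left-out arrays, 1251 kept their side of the threshold, 53 lost a call and 25 gained one. No value with a call reversed, while changes of sign without a call were not counted. With no minimum on the signal, where Benjamini-Hochberg adjustment runs over more probe sets, 10 motile cilium genes were lower in total RNA, 3 were lower in the interaction, and 9 were lower on polysomes than in total RNA in wild type and 1 in knockout. Over all genes 2655 of 14351 were then lower in total RNA, against 483 of 8085 with the minimum, and 6485 were lower on polysomes in wild type. The median of the probe sets under the minimum read 2.43 to 2.49 on wild-type and 2.34 to 2.39 on knockout total arrays. The Ift counts were then 2 lower on polysomes and 1 higher in the interaction. With a mean of at least 5 required, 3 motile cilium genes were lower in total RNA and 1 was lower on polysomes than in total RNA in wild type. Under quantile normalization 0 Ift genes were higher and 4 lower in total RNA, their median there was -0.0865, and their wild-type polysomal minus total median was 0.401. With equal medians for all arrays the Ift values were 0, 4, -0.0954 and 0.462. Equal medians also gave 8 motile cilium genes lower in total RNA, where 852 of all 8085 genes were, and 1 lower on polysomes than in total RNA in knockout. In fits of the compared groups alone, 1 motile cilium gene and 1 Ift gene were lower in total RNA, and 5 motile cilium genes were lower on polysomes than in total RNA in knockout. With at least a 1.5-fold change required, 0 Ift genes were higher and 1 lower in total RNA, and 2 in wild type and 0 in knockout were lower on polysomes than in total RNA. In the last 150 bases of the promoter windows 3.12% of motile cilium genes held the forkhead motif. The causes were not tested. Of all genes called in total RNA, 74.3% were higher, against 60.6% under quantile normalization, 55.2% with equal medians and 37.0% with no minimum. On polysomes 55.3% were higher, and 45.1% with equal medians.

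The set letter does not pair the arrays by any statement of the labels, and deviations of arrays with the same letter correlated with mixed sign. With the letter as a replicate block over all arrays, 2 Ift genes were higher and 1 lower in total RNA, and the interaction was higher for 0 motile cilium and 1 Ift gene. With the block within each RNA kind these 4 counts were 2, 1, 0 and 1. In that block 2 motile cilium genes were lower in total RNA, 3 were higher on polysomes than in total RNA in knockout, and the wild-type polysomal minus total median of the Ift genes was 0.387.

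Leaving out each array in turn gave the following lowest and highest values, where a left-out wild-type polysomal array leaves 1, which is assumed to vary like the other groups. In total RNA 1 to 11 motile cilium genes were lower (11 without the third wild-type array, 1 without the first) and 0 higher, and 1 to 4 Ift genes were lower and 0 to 1 higher. On polysomes 5 to 10 motile cilium genes were lower and 0 to 1 higher, and 2 to 4 Ift genes were lower and 0 higher. In the interaction 3 to 5 motile cilium genes were lower and 0 to 3 higher, and 3 to 4 Ift genes were lower and 0 to 3 higher. On polysomes against total RNA in wild type, 3 to 4 motile cilium genes were lower and 7 to 8 higher, and 2 to 5 Ift genes were lower and 6 higher. In knockout 0 to 3 motile cilium genes were lower and 6 to 8 higher, and 2 to 4 Ift genes were lower and 3 to 4 higher. The motile cilium medians ran from -0.551 to -0.258 in total RNA, -1.03 to -0.705 on polysomes, -0.412 to -0.0753 in the interaction, and 0.173 to 0.605 in wild type and 0.277 to 0.41 in knockout for polysomal minus total RNA. The Ift medians ran in the same order from -0.0297 to 0.0278, -0.114 to -0.0446, -0.299 to -0.13, 0.473 to 0.626 and 0.0868 to 0.171. The first of these was -0.0101 without the second knockout and -0.0297 without the third wild-type total array. Counts over all 8085 genes tested changed too. In total RNA 212 were lower and 936 higher without the first wild-type total array. Without the third, 702 were lower and 1460 higher, against 483 and 1393 with all arrays. On polysomes 324 were lower and 467 higher without the first knockout polysomal array. Without the third wild-type total array 755 were lower and 889 higher there, against 547 and 676 with all arrays.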
